A study of Mus musculus with 8 samples.

Results

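The comparison sets CD8 T cells recovered from tumors 7 days after transfer as MitoPositive cells against those transferred as MitoNegative cells. Activated mouse CD8 T cells of 3 donor mice had been co-cultured with stromal cells of bone marrow (BMSCs) whose mitochondria carried the red protein dsRed, and were sorted into cells that had taken up dsRed (MitoPositive) and cells without it (MitoNegative). Both arms were then injected into B6 mice bearing B16KVP tumors, a B16 melanoma derivative, and recovered at d7 from tumor and spleen, with the organ and arm marked by a hashtag antibody and 1 library made per donor. All cells compared here had therefore been activated, co-cultured with BMSCs, sorted and transferred, and the arm names refer to the state at transfer. No readout of dsRed at d7 was analysed here. Per the deposited hashtag list, the arms of a donor were recovered from different recipient mice, so recipient and arm cannot be told apart.

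A barcode was used if it had no fewer than 500 genes, under 15% mitochondrially encoded UMIs (unique molecular identifiers, counts of captured mRNA molecules), and a leading hashtag with 10 UMIs or more that exceeded the second by a factor of 3 or more. This gave 6 of the 18 hashtagged samples of the series, 3 per arm, and 2068 of the 10757 d7 cells. The MitoPositive tumor samples held 172, 995 and 670 cells for donors 1, 2 and 3, against 30, 85 and 116 cells in the MitoNegative samples. Their summed UMIs were 2536827, 16444035 and 11467846 in MitoPositive samples and 496485, 1007569 and 2855132 in MitoNegative samples, fewest in the MitoNegative arm. Recovery already differed at sorting: the deposited list gives 528, 2800 and 2900 sorted MitoPositive tumor cells against 124, 274 and 749 MitoNegative ones. Libraries shared 2 to 7 cell barcodes pairwise. A Cd3d, Cd3e or Cd3g UMI was found in 98.8% to 99.4% of MitoPositive and 95.7% to 100% of MitoNegative tumor cells. The 8 T cell markers had log2 fold changes above zero (5 of 8 with DESeq2 size factors), with a median of 0.21 and 0 called.

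CD8 T cells that meet antigen through the T cell receptor release interferon gamma, tumor necrosis factor and interleukin 2, attract other cells with the chemokines CCL3, CCL4, CCL5 and XCL1, and kill targets with perforin and granzymes. Calcium entry, which mitochondria help to sustain, activates NFAT factors that switch on the cytokine and chemokine genes, while repeated stimulation in tumors reduces cytokine output and induces inhibitory receptors. T cells can also acquire mitochondria from stromal cells through membrane tubes.

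The arms were told apart in every library by the hashtag oligonucleotides shown here, on which the assignment of each cell rests.
H3, tumor, MitoPositive: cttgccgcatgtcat
H4, tumor, MitoNegative: aaagcattcttcacg

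Genes of secreted effector proteins, the cytokine genes Ifng, Il2 and Lta and the chemokine genes Ccl3 and Ccl4, were lower in MitoPositive tumor cells. Of 11983 genes tested with edgeR's quasi-likelihood test with library (donor) as a block and Benjamini-Hochberg adjustment, 48 passed an adjusted p of 0.05, which is 0.401% of those tested. Of these, 23 (0.192%) were higher and 25 (0.209%) lower in MitoPositive cells. Called or not, 7051 of the 11983 genes tested had log2 fold changes above zero and 4932 below it. Counts of list members above zero, given below, stand beside that base. With DESeq2 size factors in place of TMM scaling the split of calls was 11 higher and 27 lower. Of the 48 calls, 36 passed in that fit. Those that did not were all higher genes, with adjusted p-values of 0.0502 to 0.0771. They were Eif2ak3, Nr3c1, Dennd4a, Pglyrp1, Arhgap9, Plxdc2, Tmem120b, Lat2, Tmsb4x, Os9, Vav3 and Adgre5, from the lowest to the highest. Without donor 1, 0 genes passed (1290 at an unadjusted p under 0.05), without donor 2 it was 52 and without donor 3 it was 13. All 48 kept their direction in each of these fits. DESeq2 called 174 genes and limma-voom 13 on all samples. Over the alternative settings run, the 48 calls passed in 342 of the 854 values that tested them. Without the donor block 28 of them passed, and the other 20 had adjusted p-values of 0.0531 to 0.205 (Cacnb3, Zbtb32, Os9, Lima1, Pakap, Lta, Dennd4a, Ccl4, Marcks, Ccl3, Lat2, Ube2e2, Perp, Lgmn, Crabp2, Tmsb4x, Ier3, Airn, Il2 and Gzmc, from the lowest to the highest). Levels below are counts per 1000000 UMIs (CPM) after TMM scaling unless stated, and fold changes are log2, MitoPositive over MitoNegative, with SE and n = 3 per arm. The arms overlapped in 9 of the 48 called genes. Overlap is read from the same values that gave the calls, and its share over all genes tested is not given here. Separation of a called gene is therefore a description and not added evidence.

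Ifng, the gene of interferon gamma (chr10:118441046-118445894, GRCm38), had 939.6, 1029.7 and 559 CPM in MitoPositive samples of donors 1, 2 and 3, against 4580.5, 5904 and 1700.0 CPM in MitoNegative samples. The lowest MitoNegative sample lay above the highest MitoPositive one, and in both arms donor 3 was the lowest. Its log2 fold change was -2.18 ± 0.23 (adjusted p = 0.00553), and it was lower in 3 of 3 donors. It had the smallest p of all genes tested and passed in 17 of 19 alternative settings, with log2 fold changes of -2.46 to -1.69. The exceptions were the fits without donor 1 (adjusted p = 0.0561, or 0.0512 with the count filter redone).

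Il2, which encodes the T cell growth factor interleukin 2, had 48.2, 60.0 and 14 CPM in MitoPositive samples, against 121, 157 and 60.1 CPM in MitoNegative samples. The groups were separated only narrowly, by the MitoPositive sample of donor 2 and the MitoNegative sample of donor 3. Its log2 fold change was -1.56 ± 0.29 (adjusted p = 0.0456), and a single cell held 24.1% of the MitoPositive Il2 UMIs and another 27.8% of the MitoNegative ones. Lta, which encodes lymphotoxin alpha, had 19.9, 17.5 and 10.3 CPM in MitoPositive samples, against 30.7, 34.6 and 35.9 CPM in MitoNegative samples. Each MitoNegative sample was above each MitoPositive one, with a log2 fold change of -1.25 ± 0.23 (adjusted p = 0.0456). Il2 passed in 10 and Lta in 6 of 19 alternative settings.

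The remaining 6 of 9 cytokine genes tested did not pass. Tnf, the tumor necrosis factor gene, had a log2 fold change of -0.72 ± 0.29 (adjusted p = 0.300). Il10, the gene of an inhibitory cytokine, stood at -2.03 ± 0.51 (adjusted p = 0.126), with a mean of 1.23 CPM in MitoPositive samples, against 5.14 CPM in MitoNegative samples. Values above zero were seen for Csf2, the GM-CSF gene, at 0.65 ± 0.32 (adjusted p = 0.421), and for Tgfb1, the transforming growth factor beta 1 gene, at 0.35 ± 0.10 (adjusted p = 0.147). The median over the 9 cytokine genes was -1.25, with 3 lower and 0 higher, beside a median of 0.07 over all genes tested. It was the value of Lta, itself a called gene, and ran from -1.78 to -0.25 over the alternative settings. Il3, at -2.62 ± 1.37 (adjusted p = 0.472), had 0, 269.6 and 2.02 CPM in MitoNegative samples. In MitoPositive samples it had 3.74, 6.79 and 4.94 CPM, so it was higher there in 2 of 3 donors.

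Among chemokines, Ccl4 and Ccl3 fell and the other 7 of 9 genes did not pass. Ccl4, whose product attracts other immune cells, had 1059.6, 593 and 486 CPM in MitoPositive samples, against 3061, 3221 and 865 CPM in MitoNegative samples. The groups overlapped, because the MitoPositive sample of donor 1 was above the MitoNegative sample of donor 3, yet each donor was lower in its MitoPositive sample. The log2 fold change of Ccl4 was -1.65 ± 0.31 (adjusted p = 0.0456). Ccl3, the neighbouring gene of the same family, had 390.0, 369.6 and 205 CPM in MitoPositive samples, against 764, 2064 and 446 CPM in MitoNegative samples. Its groups did not overlap, and its log2 fold change was -1.57 ± 0.28 (adjusted p = 0.0456). Ccl3 and Ccl4 overlap on opposite strands in RefSeq, and use of strand in the counting is not given in the sources used here. Both passed in 11 of 19 alternative settings. Without the donor block Ifng passed (adjusted p = 0.0336), and Il2 (0.172), Lta (0.0726), Ccl3 (0.0818) and Ccl4 (0.0779) did not.

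The other abundant chemokine genes gave smaller values. Xcl1, which encodes a ligand for cross-presenting dendritic cells, averaged 2762 CPM in MitoPositive samples, against 3407 CPM in MitoNegative samples, with a log2 fold change of -0.17 ± 0.17 (adjusted p = 0.737). Ccl5, a chemokine gene of effector and memory T cells, averaged 1400.5 CPM in MitoPositive samples, against 1233 CPM in MitoNegative samples, at 0.58 ± 0.54 (adjusted p = 0.714). The median over the 9 chemokine genes was -0.67, with 2 lower and 0 higher. It was the value of Ccl9 (adjusted p = 0.691), which was higher in the MitoPositive samples of donors 1 and 3. Ccl6, Ccl22 and Ccl9 were highest in the MitoNegative sample of donor 2, at 117, 32.5 and 57.7 CPM. That sample had the largest myeloid marker share of the tumor samples (0.0501% of UMIs), and the part of other cells in this median was not tested.

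**Figure D1:**
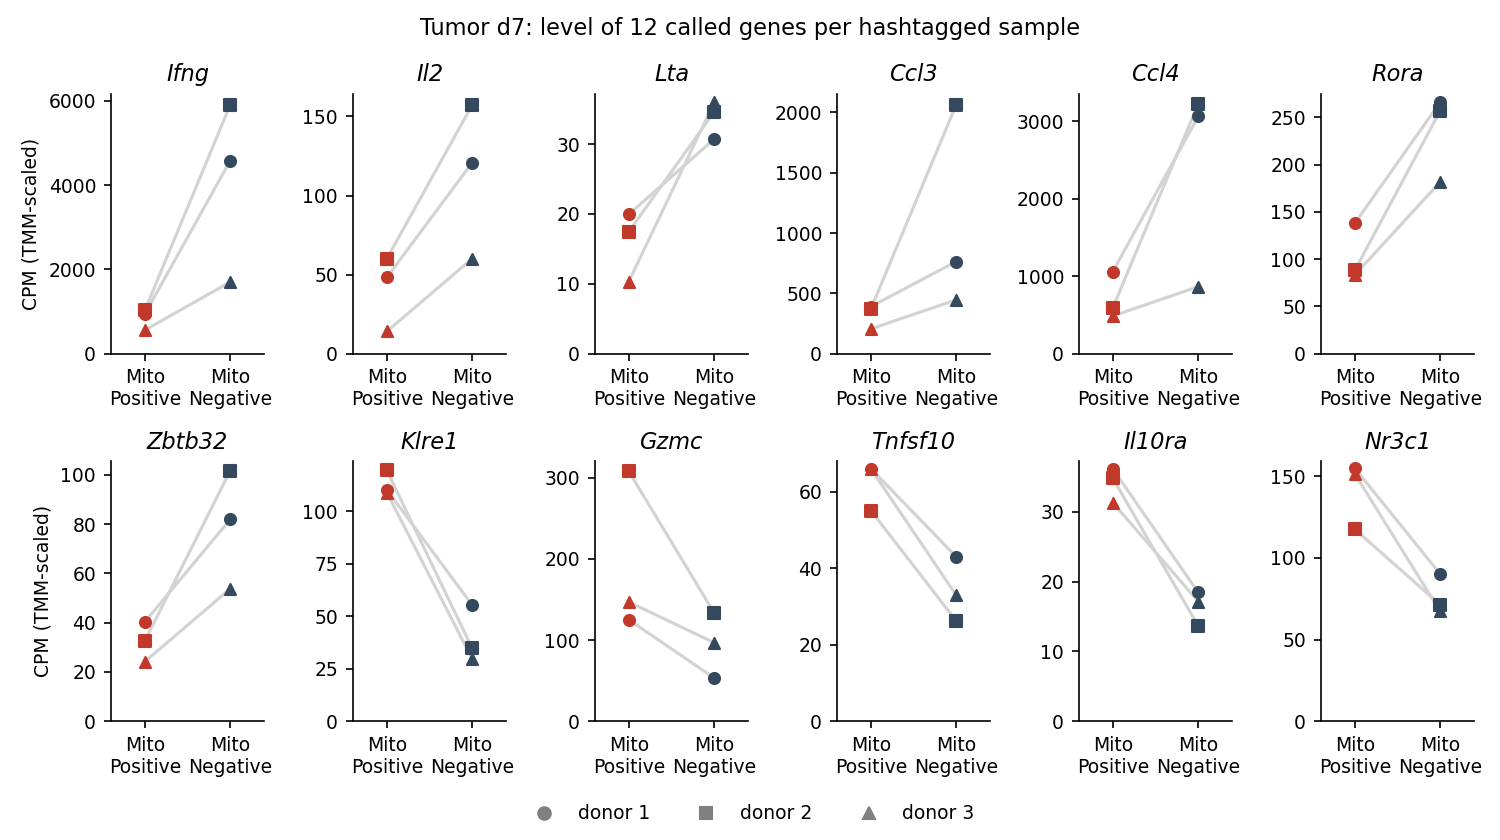
TMM-scaled CPM of 12 called genes in the 6 tumor samples, MitoPositive left and MitoNegative right, each axis from 0, with marker shapes for donors and lines joining the arms of a donor. Every line slopes 1 way within a panel, and for Ifng all MitoNegative samples (1700.0 CPM and above) lie over all MitoPositive samples (1029.7 CPM and below).

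Promoter sequence is shown for Ifng, Il2 and Ccl3, because these genes differed between the same samples. Of the called cytokine and chemokine genes, 4 were looked for (Ifng, Il2, Ccl3 and Ccl4). Ccl4 had no matched RefSeq entry, and Lta was not looked for. Each run covers 250 to 11 bases before the RefSeq start on build GRCm38.p6, 5′ to 3′ on the gene's strand, and capitals mark GGAAA or its reverse complement TTTCC, the core letters of NFAT sites.
Ifng, chr10:118440796-118441035, plus strand: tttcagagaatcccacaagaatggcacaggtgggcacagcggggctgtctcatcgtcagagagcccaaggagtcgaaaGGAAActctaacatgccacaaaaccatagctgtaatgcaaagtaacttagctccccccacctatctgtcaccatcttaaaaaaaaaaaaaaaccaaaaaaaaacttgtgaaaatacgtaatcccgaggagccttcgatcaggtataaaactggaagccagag
Il2, chr3:37125965-37126204, minus strand: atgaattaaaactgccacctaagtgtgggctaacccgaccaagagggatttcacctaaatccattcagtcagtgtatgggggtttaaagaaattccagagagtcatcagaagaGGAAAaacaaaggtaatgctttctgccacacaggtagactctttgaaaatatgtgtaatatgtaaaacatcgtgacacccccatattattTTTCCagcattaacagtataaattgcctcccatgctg
Ccl3, chr11:83649389-83649628, minus strand: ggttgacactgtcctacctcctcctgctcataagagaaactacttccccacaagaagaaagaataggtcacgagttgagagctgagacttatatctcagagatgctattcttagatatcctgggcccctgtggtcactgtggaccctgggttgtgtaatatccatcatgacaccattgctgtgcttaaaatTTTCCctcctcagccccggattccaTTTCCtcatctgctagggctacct

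Searched on both strands, GGAAA occurred in the Ifng window 1 time, in Il2 2 times and in Ccl3 2 times, and 54.1% of 32851 RefSeq windows of the same length hold it. The TATA letters TATAAA occurred in Ifng and Il2 and not in Ccl3, against 12.1% of all windows. The AP-1 letters TGANTCA, held by 6.58% of all windows, were in none of the 3. These matches describe letters only and say nothing of binding.

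The share of cells with an Ifng UMI was lower in MitoPositive tumor samples, and so was the number of UMIs in the cells that had one. To compare shares at equal depth each cell was thinned to 3000 UMIs, which left out 15, 47 and 22 MitoPositive and 1, 3 and 2 MitoNegative cells with fewer. Ifng was then found in 32.5%, 30.9% and 31.0% of MitoPositive cells, against 37.9%, 51.2% and 43.0% of MitoNegative cells. The means were 31.5% ± 0.880 in MitoPositive and 44.0% ± 6.71 in MitoNegative samples (SD, n = 3 each; two-sided exact permutation test p = 0.1, the smallest that 3 against 3 allows). Without thinning the values were 51.2%, 59.0% and 60.1% in MitoPositive samples, against 50%, 64.7% and 72.4% in MitoNegative samples, with a difference of -5.60 percentage points beside SDs of 4.89 in MitoPositive and 11.4 in MitoNegative samples (exact p = 0.5). Cells with an Ifng UMI held on average 8.29, 8.63 and 4.82 UMIs after thinning in MitoPositive samples, against 31.0, 27.8 and 15.4 UMIs in MitoNegative samples. The MitoNegative mean was the higher in all 3 donors, whereas the exact 95% binomial intervals of the shares of donor 1 overlapped.

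Ccl4, Ccl3 and Il2 were likewise found in fewer thinned MitoPositive cells. Ccl4 was found in 26.1%, 20.7% and 21.5% of MitoPositive cells, against 34.5%, 46.3% and 28.9% of MitoNegative cells. For Ccl3 the shares were 14%, 14.1% and 11.6% in MitoPositive cells and 24.1%, 30.5% and 20.2% in MitoNegative cells. For Il2 they were 2.55%, 1.16% and 1.70% in MitoPositive cells and 6.90%, 13.4% and 4.39% in MitoNegative cells. In each of the 3 genes the groups did not overlap (exact p = 0.1 each, 6 genes tested this way, unadjusted; the design cannot reach 0.05). As a background, 20 cells of a cluster led by neutrophil genes, thinned likewise, gave 0 cells with Ifng, 0 with Ccl3, 0 with Il2 and 2 with Ccl4. The whole cluster held 28 cells, of which 1 came from a tumor sample and the others from spleen samples. Its median was 4006 UMIs, against 10067 to 21894 in the tumor samples. Each count of 0 of 20 cells allows a share of up to 15% (3 counts, counting error only). A cluster led by Ncr1, an NK cell receptor gene, held spleen cells only. In 8 of its cells, Ifng was found in 2 cells, Ccl4 in 2, Ccl3 in 1 and Il2 in 0. Both backgrounds thus differ from the tumor samples in organ as well as in cell type.

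Ccl4 and Ccl3 were found in a smaller share of the cells with an Ifng UMI in MitoPositive samples. Among thinned cells with an Ifng UMI, Ccl4 was found in 49.0%, 37.2% and 37.8% in MitoPositive samples, against 72.7%, 71.4% and 55.1% in MitoNegative samples. Among cells without an Ifng UMI the Ccl4 shares overlapped, at 15.1%, 13.3% and 14.1% in MitoPositive samples and 11.1%, 20% and 9.23% in MitoNegative samples. Ccl3 was found in 35.3%, 33.1% and 27.4% of Ifng cells in MitoPositive samples, against 45.5%, 57.1% and 42.9% in MitoNegative samples. The Ifng cells numbered 51, 293 and 201 in MitoPositive samples and 11, 42 and 49 in MitoNegative samples, and these shares were not tested. Most tumor cells lay in a cluster led by Ccl4 and Ifng (median of 6608 UMIs) and in one led by Nrgn and Gzmc (median of 21347 UMIs). The first was the larger in MitoPositive cells of donor 1 and in MitoNegative cells of donors 1 and 2, and the second in MitoPositive cells of donors 2 and 3 and in MitoNegative cells of donor 3. Since genes that lead these clusters differed between the arms, cluster sizes were not compared.

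**Figure D2:**
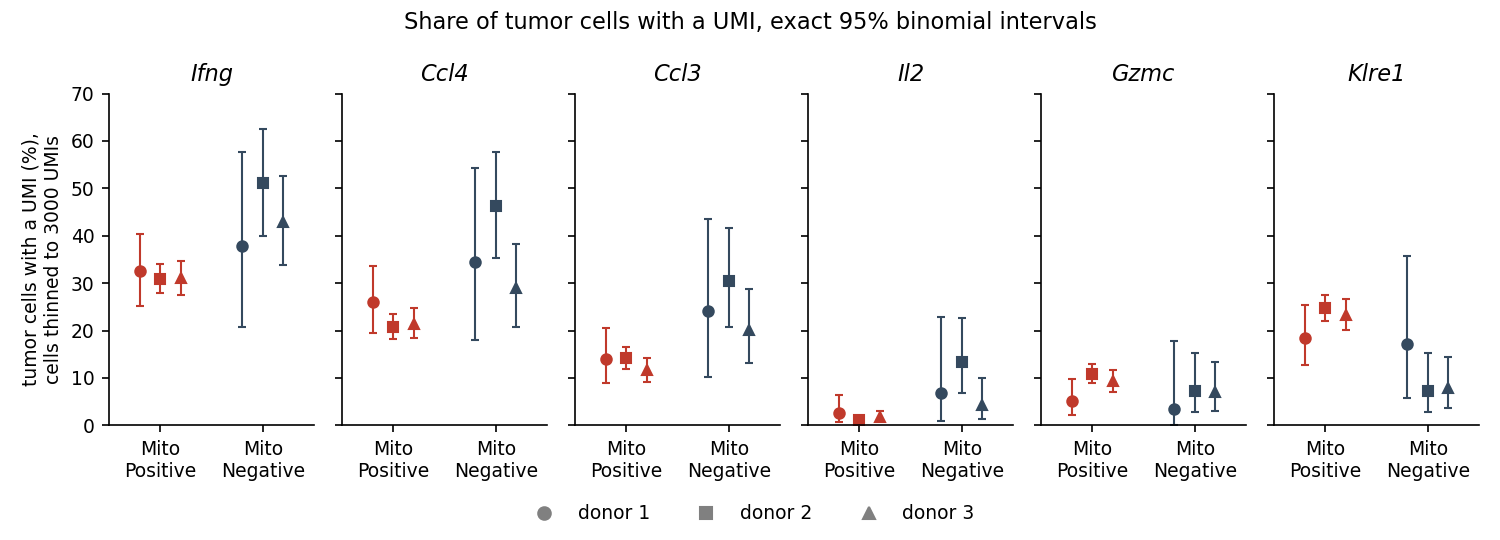
Percent of tumor cells with a UMI for 6 genes after thinning each cell to 3000 UMIs, MitoPositive left and MitoNegative right, 1 point per sample with its exact 95% binomial interval, which covers counting error only. For Ifng, Ccl4, Ccl3 and Il2 the MitoPositive points lie below the MitoNegative points, and for Klre1 above them.

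The receptor genes Klre1, Il10ra, Nr3c1 and Calcrl were higher in MitoPositive tumor cells. Klre1, an NK cell lectin-like receptor also found on CD8 T cells, had 110.1, 119 and 109 CPM in MitoPositive samples, against 55.3, 34.6 and 29.6 CPM in MitoNegative samples. MitoPositive samples were nearly level, all of them above the MitoNegative ones, and the log2 fold change was 1.66 ± 0.24 (adjusted p = 0.0287, higher in 3 of 3 donors). Klre1 was found in 18.5%, 24.7% and 23.3% of thinned MitoPositive cells, against 17.2%, 7.32% and 7.89% of MitoNegative cells (exact p = 0.1). Without thinning it was 40.7%, 52.6% and 51.3% of MitoPositive cells, against 43.3%, 21.2% and 35.3% of MitoNegative cells, higher in 2 of 3 donors (exact p = 0.2). Klre1 was found in 8 of 8 thinned cells of an Ncr1-led cluster of spleen cells that was left out of the sums. It passed in 13 of 19 alternative settings and was the 1 gene of 10 killer lectin-like receptors that passed, with 8 of the 10 above zero and a median of 0.44. The next were Klrb1f at 1.62 ± 0.36 (adjusted p = 0.0803), Klrk1, the NKG2D gene, at 0.53 ± 0.16 (adjusted p = 0.177) and Klrd1, the CD94 gene, at 0.25 ± 0.13 (adjusted p = 0.434).

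Il10ra, which encodes the ligand-binding chain of the interleukin 10 receptor, had 36.1, 34.8 and 31.3 CPM in MitoPositive samples, against 18.4, 13.6 and 17.1 CPM in MitoNegative samples. Its groups did not overlap, with a log2 fold change of 1.04 ± 0.18 (adjusted p = 0.0353). It was the only call among 23 cytokine receptor genes, whose median was 0.13. Others of that list with small p were Ifnar1 at 0.81 ± 0.20 (adjusted p = 0.110), Tgfbr2 at 0.56 ± 0.15 (adjusted p = 0.126) and Ifngr1, a chain of the interferon gamma receptor, at 0.57 ± 0.16 (adjusted p = 0.147). Nr3c1, the glucocorticoid receptor gene, had 155, 118 and 152 CPM in MitoPositive samples, against 90.1, 71.3 and 67.2 CPM in MitoNegative samples. It too was separated, at 0.94 ± 0.15 (adjusted p = 0.0353), and was the 1 call among 9 genes of the receptor and its targets. Il10ra and Nr3c1 each passed in 7 of 19 alternative settings, and Nr3c1 did not with DESeq2 size factors (adjusted p = 0.0519). Tsc22d3, a classical glucocorticoid target that encodes GILZ, stood at 0.56 ± 0.22 (adjusted p = 0.279).

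Calcrl, the calcitonin receptor-like receptor gene, had 9.14, 12.6 and 12.3 CPM in MitoPositive samples, against 4.10, 2.10 and 3.36 CPM in MitoNegative samples. Its groups did not overlap (2.00 ± 0.31, adjusted p = 0.0346), on 14 UMIs in the MitoNegative arm, and the log2 fold change was 0.58 (adjusted p = 0.781) after thinning each cell to 3000 UMIs. Gipc2, which encodes a PDZ domain protein, had 8.72, 14.5 and 22.4 CPM in MitoPositive samples, against 0, 0 and 2.69 CPM in MitoNegative samples. Its log2 fold change of 3.47 ± 0.49 (adjusted p = 0.0279) rests on 8 MitoNegative UMIs, and without donor 3 the fit gave 9.83 (adjusted p = 0.102) with no MitoNegative UMI left. Tspan32, a tetraspanin gene that restrains T cell proliferation in mice, had 28.2, 30.8 and 29.4 CPM in MitoPositive samples, against 16.4, 6.29 and 10.4 CPM in MitoNegative samples (1.59 ± 0.27, adjusted p = 0.0353; 0.87 with tumor sums thinned to the smallest, adjusted p = 0.571). Again each MitoPositive sample was above each MitoNegative one.

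Of 13 granzyme, perforin and granule genes, Gzmc was the 1 that passed. Gzmc, a granzyme gene of strongly activated killer cells, had 125, 308 and 147 CPM in MitoPositive samples, against 53.2, 133 and 96.8 CPM in MitoNegative samples. The groups overlapped, since the MitoNegative sample of donor 2 was above the MitoPositive sample of donor 1, although each donor was higher in its MitoPositive sample. Its log2 fold change was 0.95 ± 0.16 (adjusted p = 0.0353); it passed in 8 of 19 alternative settings, stood at 0.37 (adjusted p = 0.629) in thinned cells and at an adjusted p of 0.205 without the donor block, and close granzyme paralogs may share reads with it. Shares of thinned cells with Gzmc were 5.10%, 10.8% and 9.26% in MitoPositive and 3.45%, 7.32% and 7.02% in MitoNegative samples (exact p = 0.3). Gzmb, the main granzyme gene of CD8 T cells, stood at -0.17 ± 0.34 (adjusted p = 0.906), and Prf1, the perforin gene, at -0.04 ± 0.23 (adjusted p = 0.984). Gzmk stood at 2.35 ± 0.67 (adjusted p = 0.147) and Serpinb6b at -0.49 ± 0.12 (adjusted p = 0.114), and the median of the list was -0.04.

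Tnfsf10, which encodes the death ligand TRAIL, had 66.0, 55.1 and 66.1 CPM in MitoPositive samples, against 43.0, 26.2 and 32.9 CPM in MitoNegative samples. Its groups did not overlap, and it passed at 0.94 ± 0.14 (adjusted p = 0.0315) as the 1 call among 10 TNF family death genes. Tnfsf10 passed in 7 of 19 alternative settings. Fasl, the gene of the other main death ligand of T cells, stood at 0.53 ± 0.23 (adjusted p = 0.337). Pglyrp1, which encodes a peptidoglycan recognition protein and was placed in the list of inhibitory receptors and ectonucleotidases, had 128, 191 and 175 CPM in MitoPositive samples, against 104, 67.1 and 73.2 CPM in MitoNegative samples. It rose by 1.08 ± 0.19 (adjusted p = 0.0456), with no overlap between the groups. Pglyrp1 passed in 6 of 19 alternative settings and not with DESeq2 size factors (adjusted p = 0.0541). It was the 1 call of 15 in that list, although it is not itself a membrane receptor of the PD-1 kind.

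The inhibitory receptors in the strict sense gave no call. Pdcd1, the PD-1 gene, averaged 144 CPM in MitoPositive samples, against 139.7 CPM in MitoNegative samples, at 0.06 ± 0.16 (adjusted p = 0.943). Havcr2, the TIM-3 gene, stood at -0.90 ± 0.30 (adjusted p = 0.219), Lag3 at -0.33 ± 0.17 (adjusted p = 0.436) and Ctla4 at 0.25 ± 0.13 (adjusted p = 0.434). Cd200 stood at -1.19 ± 0.35 (adjusted p = 0.161), and Entpd1, the gene of the ectonucleotidase CD39, at 0.78 ± 0.23 (adjusted p = 0.170). Of this list 7 were above and 8 below zero, with a median of -0.04. Lilrb4a, another inhibitory receptor gene, stood at 0.97 ± 0.28 (adjusted p = 0.157). The 12 costimulatory receptor genes had 0 calls (edgeR) and a median of -0.02.

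Among transcription factors, Rora and Zbtb32 fell. Rora, which encodes the nuclear receptor ROR alpha, had 138, 88.2 and 83.3 CPM in MitoPositive samples, against 266, 257 and 182 CPM in MitoNegative samples. All MitoNegative samples lay above all MitoPositive ones, and the log2 fold change was -1.20 ± 0.17 (adjusted p = 0.0279), passing in 14 of 19 alternative settings. Rora was the 1 call of 11 effector differentiation factors, whose median was 0.24. Runx3 stood at 0.36 ± 0.11 (adjusted p = 0.173) and Eomes at 0.86 ± 0.27 (adjusted p = 0.189), both factors of the CD8 effector and memory programme.

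Zbtb32, a repressor induced by activation in lymphocytes, had 40.3, 32.5 and 24.2 CPM in MitoPositive samples, against 81.9, 102 and 53.8 CPM in MitoNegative samples. Its groups did not overlap (-1.30 ± 0.20, adjusted p = 0.0315; 0.0572 without the donor block). It was the 1 call of 17 Nr4a, Tox, NFAT and Irf activation factors, with a list median of 0.06, and Tox itself stood at 0.40 ± 0.16 (adjusted p = 0.312). Ier3, an immediate early survival gene, was the 1 call of 14 AP-1 and Egr immediate early genes, with 28.2, 21.2 and 15.7 CPM in MitoPositive samples, against 43.0, 35.7 and 39.6 CPM in MitoNegative samples. The groups were separate (-0.97 ± 0.18, adjusted p = 0.0456), while Jund stood at 0.32 ± 0.09 (adjusted p = 0.138) and Fosl2 at 0.66 ± 0.19 (adjusted p = 0.152). The median of that list was -0.11.

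The remaining higher genes include signalling and cytoskeletal genes. Vav3, a guanine nucleotide exchange factor gene downstream of antigen receptors, rose by 0.82 ± 0.16 (adjusted p = 0.0456) as the 1 call of 20 CD3, CD8 and proximal signalling genes, of which 17 were above zero (12 with DESeq2 size factors) with a median of 0.13; it stood at 0.16 (adjusted p = 0.891) in thinned cells. Cd3g, a chain of the T cell receptor complex, stood at 0.45 ± 0.09 (adjusted p = 0.0528). Eif2ak3, the gene of the endoplasmic reticulum stress kinase PERK, rose by 0.84 ± 0.14 (adjusted p = 0.0353), the 1 call of 16 in that list, with Ern1, the IRE1 alpha gene, at 0.79 ± 0.22 (adjusted p = 0.137). Tmsb4x, the thymosin beta 4 gene that buffers actin monomers, had 15737, 17698 and 17359 CPM in MitoPositive samples, against 11927, 13039 and 12602 CPM in MitoNegative samples. It was the most abundant of the 48 and the smallest in change, at 0.44 ± 0.08 (adjusted p = 0.0456), and its groups did not overlap. These calls were among those that passed least often, with Ier3, Lat2 and Os9 passing in 3 of 19 alternative settings, Tmsb4x and Vav3 in 4, and Eif2ak3, Adgre5 and Arhgap9 in 5. Tmsb15b2, a low-level gene of the same family with near copies that may share reads, rose by 1.69 ± 0.27 (adjusted p = 0.0346) on 20 MitoNegative UMIs and stood at 3.09 (adjusted p = 0.218) in thinned cells.

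Tmem120b, a transmembrane protein gene, had 24.1, 35.6 and 30.8 CPM in MitoPositive samples, against 12.3, 4.20 and 13.8 CPM in MitoNegative samples (1.55 ± 0.29, adjusted p = 0.0456). Gxylt1, a xylosyltransferase gene, had 30.3, 32.8 and 37.9 CPM in MitoPositive samples, against 16.4, 9.44 and 17.1 CPM in MitoNegative samples (1.22 ± 0.21, adjusted p = 0.0353). Lat2, an adaptor gene of immune receptor signalling, had 24.9, 35.2 and 33.9 CPM in MitoPositive samples, against 14.3, 11.5 and 15.5 CPM in MitoNegative samples (1.22 ± 0.23, adjusted p = 0.0456; 2.27 in thinned cells, adjusted p = 0.110). None of these 3 overlapped between arms. Airn, a long noncoding RNA of an imprinted locus, rose by 1.05 ± 0.17 (adjusted p = 0.0346), and stood at 0.28 (adjusted p = 0.841) with tumor sums thinned to the smallest. Plxdc2, Arhgap9, Adgre5 (the CD97 gene), Os9 and Dennd4a passed with log2 fold changes of 0.88, 0.78, 0.74, 0.73 and 0.70.

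Lower genes outside the cytokine group were of very different abundance. Crabp2, which encodes a retinoic acid binding protein, had 21.2, 10.3 and 2.56 CPM in MitoPositive samples, against 143, 125 and 8.74 CPM in MitoNegative samples. Donor 3 was low in both arms, so the groups overlapped, and the log2 fold change was -2.86 ± 0.35 (adjusted p = 0.0149). Perp, a p53 target gene, fell by 1.14 ± 0.20 (adjusted p = 0.0456), Farp1 by 0.84 ± 0.15 (adjusted p = 0.0456) and Csnk1e, the casein kinase 1 epsilon gene, by 1.37 ± 0.25 (adjusted p = 0.0456). Csnk1e stood at 0.10 after thinning each cell to 3000 UMIs, the only call to change sign in an alternative. Pakap fell by 1.53 ± 0.29 (adjusted p = 0.0456), with a single cell giving 29.5% of its MitoNegative UMIs.

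The 9 lower genes named here had under 5 CPM in every MitoPositive sample and rested on few MitoNegative cells. They were Timp1 (-5.56 ± 0.91), a metalloproteinase inhibitor gene, Fmn1 (-5.35 ± 0.86), Parvb (-4.25 ± 0.74), Arhgef11 (-3.50 ± 0.56), Sbf2 (-3.43 ± 0.47), Cacnb3 (-3.27 ± 0.57), Lonrf1 (-3.22 ± 0.59), Ube2e2 (-3.14 ± 0.58) and Osbpl1a (-2.25 ± 0.42). Timp1 had 0, 0.272 and 0 CPM in MitoPositive samples, against 28.7, 3.15 and 4.03 CPM in MitoNegative samples, which is 4 against 29 UMIs. Fmn1 had 0, 0.815 and 0.706 CPM in MitoPositive samples, against 0, 2.10 and 93.7 CPM in MitoNegative samples, so nearly all of it came from donor 3. Leaving out donor 3 gave -1.28 for Fmn1, -2.17 for Arhgef11, -2.73 for Sbf2, -2.15 for Lonrf1 and -1.58 for Osbpl1a, none of which passed. Leaving out donor 2 gave -6.94 for Fmn1, -4.29 for Arhgef11 and -8.89 for Timp1, and leaving out donor 1 gave -4.58 for Timp1. Arhgef11 stood at -6.36 in thinned cells (adjusted p = 0.205). The UMIs of these 9 genes lay in 6 to 17 MitoNegative cells, and the largest single cell gave 35.0% to 68.8% of the MitoNegative UMIs. For Fmn1 and Ube2e2 donor 1 had no UMI in either arm, and its sign followed from the prior count of 1. Marcks, Lgmn and Lima1 also passed but did not move the same way in 3 of 3 donors. Lima1 stood at -3.16 with all donors and at -2.48 (adjusted p = 0.269) without donor 3.

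Markers of myeloid and melanoma cells also lay mostly below zero. Myeloid markers took 0.0117%, 0.0144% and 0.0161% of UMIs in MitoPositive samples, against 0.0123%, 0.0501% and 0.0389% in MitoNegative samples (exact p = 0.3), and 13 of 14 tested were below zero with a median of -1.52. Apoe stood at -3.17 ± 0.87 (adjusted p = 0.135) and Tyrobp at -2.42 ± 0.67 (adjusted p = 0.142). Melanoma markers took 0.000118%, 0.00674% and 0.000654% of UMIs in MitoPositive samples, against 0.000604%, 0.000893% and 0.169% in MitoNegative samples, with all 7 tested below zero and Mitf at -3.04 ± 0.63 (adjusted p = 0.0657). The high melanoma value was that of donor 3 alone, the donor in which Fmn1 was high. Timp1 was highest in the MitoNegative sample of donor 1 (28.7 CPM), whose myeloid and melanoma shares were the lowest of that arm. When cells were limited to those with a Cd3 UMI and at most 2 myeloid and melanoma UMIs, 2 of the 9 low-level genes had enough counts to be tested and 0 passed. Of the 48 calls, 38 could be tested in those cells and 15 passed, all with their direction. Among those that passed were Ifng (-2.18), Ccl4 (-2.03), Ccl3 (-1.99), Lta (-1.78), Rora (-1.37), Zbtb32 (-1.61), Crabp2 (-2.91) and Klre1 (1.31). Among the 23 that did not pass were Il2 (-2.07, adjusted p = 0.111), Gzmc (0.99, adjusted p = 0.0731), Nr3c1 (adjusted p = 0.0544), Vav3 (0.0584), Tnfsf10 (0.0731), Gipc2 (0.151), Eif2ak3 (0.151), Pglyrp1 (0.152), Tspan32 (0.170) and Tmsb4x (0.291).

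Other marker lists gave low or overlapping sums. The 6 neutrophil markers summed to 1.18, 1.82 and 1.57 unscaled CPM in MitoPositive samples, against 2.01, 0 and 1.05 in MitoNegative samples, with Csf3r and Retnlg at 0 in all 6 and none passing the count filter. Stromal markers summed to 0.394, 4.20 and 1.05 unscaled CPM in MitoPositive samples, against 0, 14.9 and 51.1 in MitoNegative samples, with Col3a1, Col1a2 and Lum at 0. Dendritic markers had 6 of 7 below zero with a median of -0.57, NK and gamma-delta T cell markers had Klre1 as 1 call of 7 with a median of 0.86, and B cell markers had 3 of 6 above zero. Igkc, an antibody light chain gene of B cells, had 4.57, 5.30 and 6.17 CPM in MitoPositive samples, against 73.7, 27.3 and 17.1 CPM in MitoNegative samples, without overlap (-2.75 ± 1.80, adjusted p = 0.567). CD4 and regulatory T cell markers had 4 of 6 above zero with a median of 0.35, and 2 markers each could be tested for endothelial and erythroid cells. The part of these cells in any single result was not tested beyond the restricted cells given above.

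The genes carried by the mitochondrial genome itself lay above zero together without a call. The 13 mitochondrially encoded mRNAs had log2 fold changes of 0.22 to 0.37 with a median of 0.28, 13 of 13 above zero, and 0 passed with edgeR. Their summed share of UMIs was 2.22%, 2.12% and 2.07% in MitoPositive samples, against 2.08%, 1.70% and 1.77% in MitoNegative samples, which overlapped (exact p = 0.2). The rule for cells had already left out barcodes with 15% or more of such UMIs, and no value without that limit is given here. The limits on genes and on these UMIs removed 16, 20 and 18 of 217, 1051 and 711 MitoPositive barcodes. In MitoNegative samples they removed 1, 0 and 1 of 43, 98 and 123. DESeq2 called 2 of them and limma-voom 0, and 13 of 13 were above zero in each alternative setting run. mt-Co2, a cytochrome c oxidase subunit, stood at 0.29 ± 0.07 (adjusted p = 0.0995), mt-Atp6 at 0.28 ± 0.07 (adjusted p = 0.110) and mt-Nd2 at 0.37 ± 0.09 (adjusted p = 0.114). Reads of this kind do not tell the origin of a mitochondrial genome. Medians of nuclear genes of the same organelle were 0.03 for 37 complex I genes, 0.07 for 35 genes of complexes III, IV and V, 0.02 for 22 tricarboxylic acid cycle genes and -0.12 for 30 genes of mitochondrial biogenesis and import, beside 0.07 over all genes tested. With DESeq2 size factors, with a median of -0.0027 over all genes, 14 of 37, 17 of 35, 10 of 22 and 8 of 30 of these were above zero.

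Of 37 functional lists, 13 held a called gene and 24 did not, and the medians of those 24 ran from -0.20 (hypoxia, 13 genes) to 0.40 (tissue residency, 12 genes). The 19 glycolysis genes had a median of -0.07. Integrin and adhesion genes had 13 of 14 above zero (12 with DESeq2 size factors) with a median of 0.38, led by Itgav at 0.62 ± 0.15 (adjusted p = 0.113) and Itgb1 at 0.53 ± 0.14 (adjusted p = 0.128). The chemokine receptor list also held S1pr5, a sphingosine-1-phosphate receptor gene that is not a chemokine receptor. All 9 genes tested in that list were above zero (8 with DESeq2 size factors), with a median of 0.36, beside 7051 of all 11983 genes tested. S1pr5 had 12 UMIs in MitoPositive and 0 in MitoNegative samples. Ccr2, a receptor for monocyte chemoattractants, stood at 0.59 ± 0.39 (adjusted p = 0.565). The S phase (21 genes) and G2/M (23 genes) lists had medians of 0.18 and 0.16. Interferon-stimulated genes had a median of -0.15 over 22 genes, and the GTPases induced by interferon gamma had 0.23 over 15 genes. None of the members of these lists passed in the edgeR test.

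**Figure D3:**
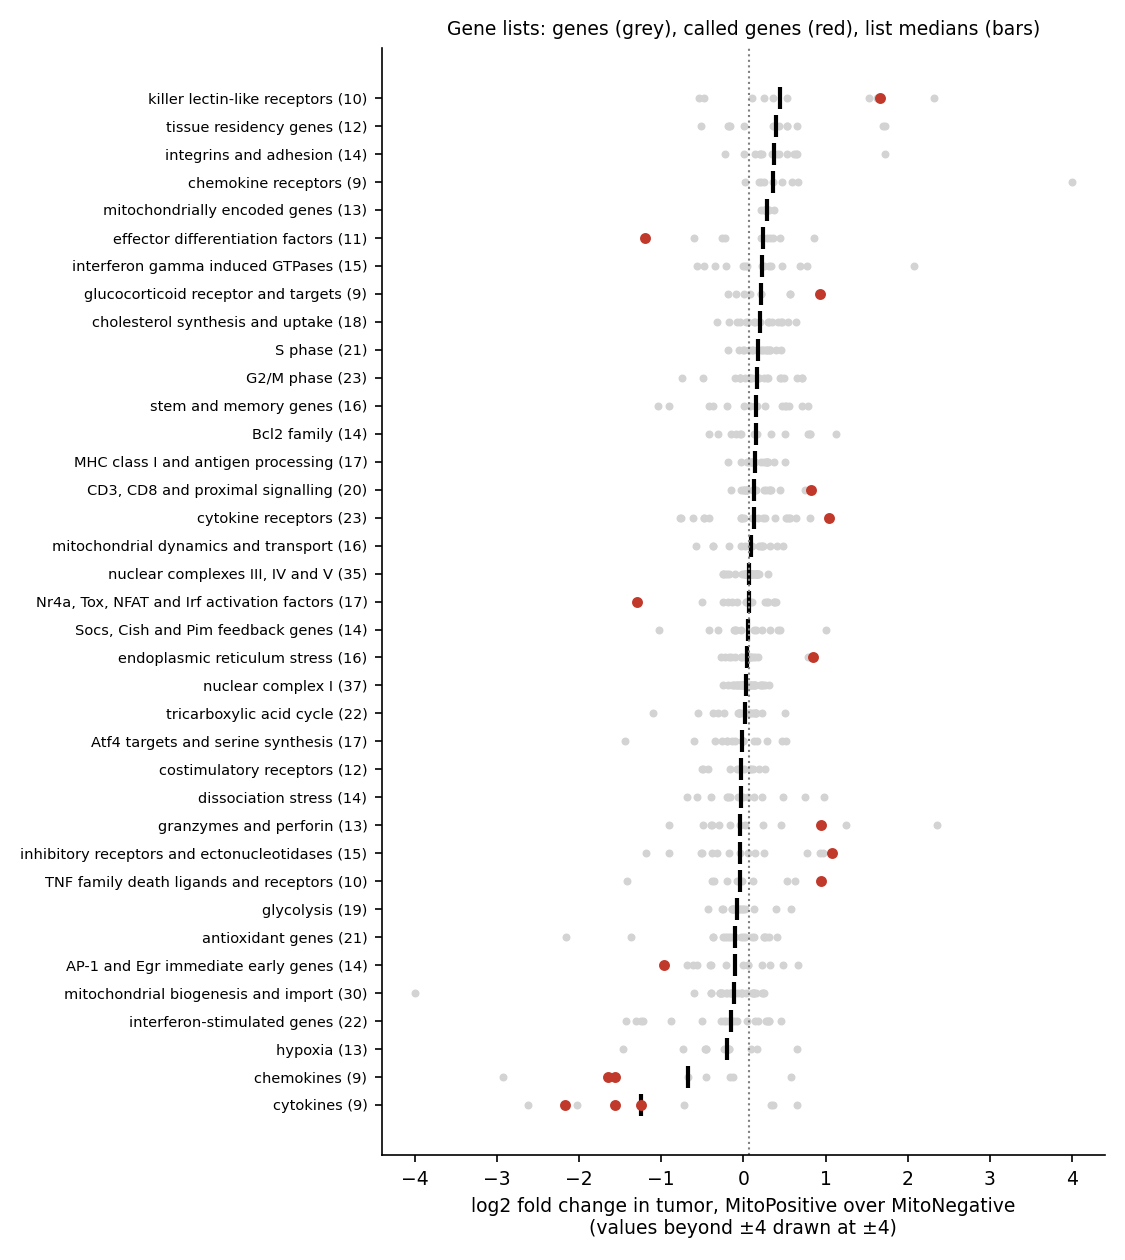
Log2 fold change in the tumor, MitoPositive over MitoNegative, of the genes of 37 functional lists (grey), with called genes in red, list medians as bars, the median of all genes tested as a dotted line and the number of genes tested in brackets. The lowest medians are those of cytokines (-1.25) and chemokines (-0.67), and the mitochondrially encoded genes form a narrow group at 0.28. The cytokine median is the value of Lta, a called gene, and the chemokine median is the value of Ccl9, which was not called.

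In the spleen, where the same arms were recovered from the same recipients, 333 genes (2.78% of those tested) passed. The 45 tumor calls counted as moving the same way in 3 of 3 donors include Fmn1 and Ube2e2, which had no tumor UMI in donor 1. The 45 had the same sign in the spleen for 35 genes, beside 53.8% of all 11983 genes tested, and 12 of them also passed there with that sign. These were Zfp981, Klre1, Tspan32, Airn, Eif2ak3 and Dennd4a, higher in MitoPositive cells of both organs, and Farp1, Rora, Zbtb32, Il2, Ccl3 and Osbpl1a, lower in both. Klre1 had 59.4, 62.8 and 112 CPM in MitoPositive spleen samples, against 14, 19.4 and 14 CPM in MitoNegative ones, with a log2 fold change of 2.09 ± 0.22 (adjusted p = 0.000993). Il2 and Ccl3 were much less abundant in the spleen than in the tumor, yet fell by 1.76 ± 0.37 (adjusted p = 0.0270) and by 1.97 ± 0.42 (adjusted p = 0.0284) in MitoPositive spleen samples. The MitoPositive spleen sample of donor 3 held 49 cells. The spleen arms also differed in T cell receptor genes. Trbv14 made up 79.0%, 66.4% and 67.4% of Trbv UMIs in MitoPositive spleen samples, against 96.8%, 90.8% and 85.3% in MitoNegative ones. The T cell receptor gamma genes Tcrg-C1 (2.65 ± 0.42, adjusted p = 0.0107), Tcrg-C2 (2.47 ± 0.37, adjusted p = 0.00831) and Trgv2 (2.71 ± 0.58, adjusted p = 0.0295) passed in the spleen together with Klre1, and their part in the spleen values was not tested. In the tumor Trbv14 made up 90.7%, 90.7% and 88.1% in MitoPositive samples, against 89.6%, 90.8% and 96.7% in MitoNegative samples, and none of those gamma genes passed there. In tumor cells with a Trbv14 UMI, Klre1 stood at 1.48 (adjusted p = 0.00503).

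Ifng was not called in the spleen, at 39.2, 44.5 and 40.2 CPM in MitoPositive samples and 59.5, 41.8 and 37.3 CPM in MitoNegative samples (-0.35 ± 0.26, adjusted p = 0.608). The arm effect on Ifng in the tumor minus that in the spleen was -1.83 ± 0.34 (adjusted p = 0.0892). Across all genes this difference of arm effects gave 0 calls with edgeR (0.0% of those tested), 1591 at an unadjusted p under 0.05, 160 with DESeq2 and 17 with limma-voom. Without donor 3, 370 genes passed it, without donor 2 it was 5 and without donor 1 it was 0. Tnfsf10 had the smallest adjusted p of the tumor calls, with 33.9, 31.7 and 43.1 CPM in MitoPositive and 45.2, 40.5 and 46.3 CPM in MitoNegative samples of the spleen (difference of effects 1.29 ± 0.19, adjusted p = 0.0645). The difference between organs thus did not pass for Ifng or Tnfsf10.

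**Figure D4:**
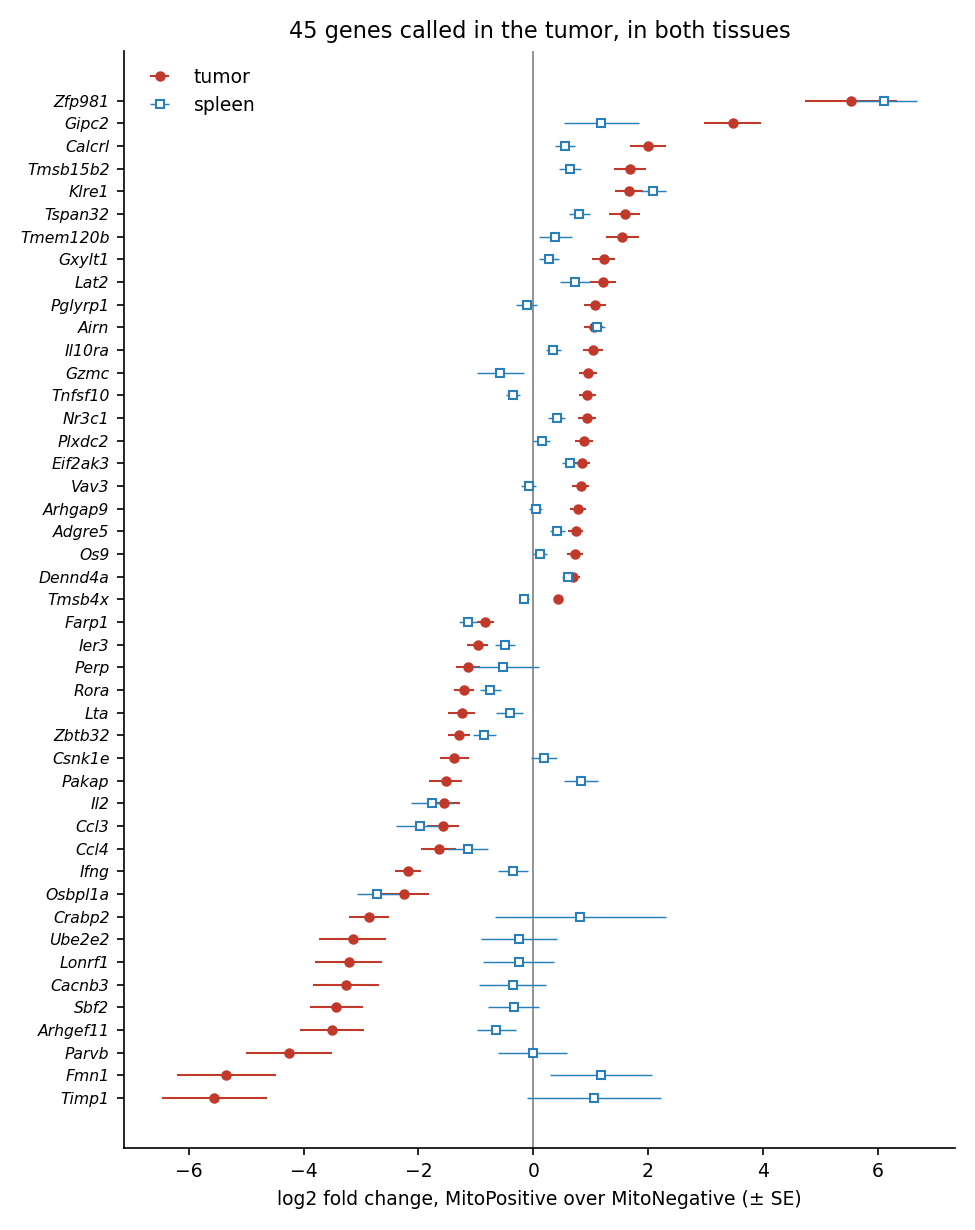
Log2 fold change, MitoPositive over MitoNegative, with SE for 45 genes in tumor (filled red circles) and spleen (open blue squares). These passed in the tumor and were counted as moving the same way in 3 of 3 donors, although Fmn1 and Ube2e2 had no tumor UMI in donor 1. Most squares lie on the side of the circles (35 of 45), with Ifng at -2.18 in the tumor and -0.35 in the spleen.

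The largest increase was that of Zfp981, a KRAB zinc finger gene (chr4:146502000-146539395, GRCm38) of a family of DNA-binding repressors. In CPM without scaling, MitoPositive tumor samples had 12.2, 9.73 and 11.1, against 0, 0.992 and 0 in MitoNegative samples. This is 318 UMIs against 1 UMI, a ratio of 45.5 after division by total UMIs, with an exact 95% interval for counting error of 8.11 to 1804. It was found in 12.2%, 13.1% and 14.3% of MitoPositive tumor cells, against 0%, 1.18% and 0% of MitoNegative cells. The MitoNegative zeros, in 30 and 116 cells, allow shares of up to 10% and 2.59% (3 counts). The fitted log2 fold change was 5.54 ± 0.80 (adjusted p = 0.0282), and it passed in 10 of 18 alternative settings. The fit gave 9.34 without donor 2, where no MitoNegative UMI was left, 4.04 without donor 3 (adjusted p = 0.166) and 7.88 in thinned cells (adjusted p = 0.173). In the spleen the values were 5.31, 8.36 and 9.28 unscaled CPM in MitoPositive samples, against 0.0376, 0.252 and 0 in MitoNegative samples.

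The groups were far apart in both organs, and the neighbouring genes gave no call. The 4 other genes tested within 1 Mb, Gm13212, Zfp992, Zfp993 and Zfp991, had log2 fold changes of -0.01 to 0.31 and 0 passed with edgeR. Zfp981 lies within the annotated span of Zfp993 in part, and the zinc finger genes of this cluster are close paralogs, so reads shared between them may be lost or misplaced.

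**Figure D5:**
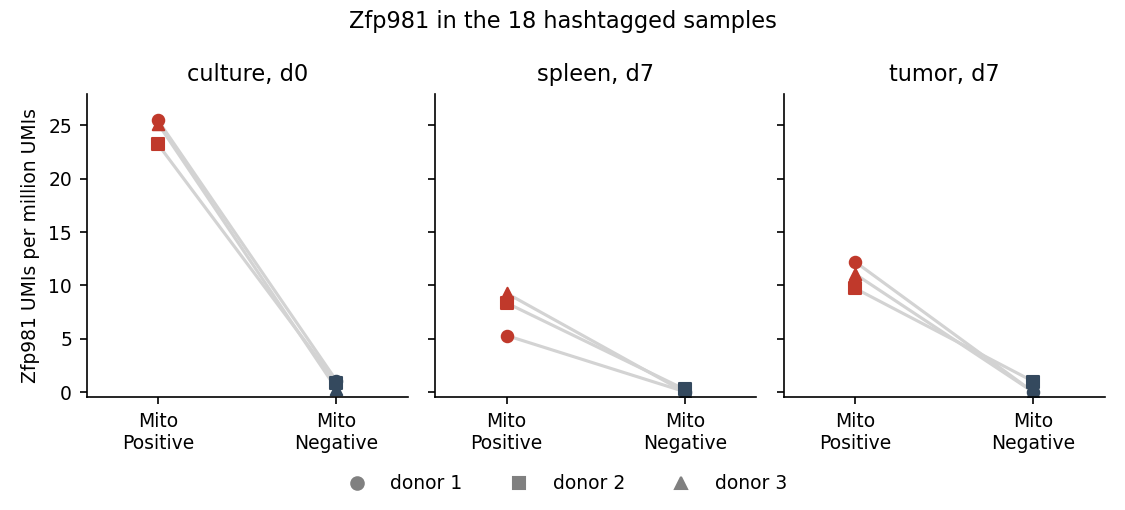
Unscaled CPM of Zfp981 in all 18 hashtagged samples, MitoPositive left and MitoNegative right, for culture at d0, spleen at d7 and tumor at d7, with lines joining the arms of a donor. MitoPositive samples lie at 5.31 or above and MitoNegative samples at 1.08 or below; d0 arms follow the deposited hashtag list.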

How the data were processed

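Droplet 3' single-cell libraries of T cells with antibody hashtags were analysed. Per the file headers, the deposited matrices hold raw UMI counts of 32285 genes and 6 hashtags, written by Cell Ranger 7.0.0. Seurat 4.0.5 and the build mm10 (GRCm38) are also named in the submitters' processing notes, with no role given. The deposited list of hashtags also gives the authors' counts of sorted cells. Members and gene lists (37 functional, 11 of cell type markers) were chosen with earlier results of these data known.

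Of 11584 d7 barcodes, 10794 met the rule for cells and hashtags. Cells were clustered (scanpy 1.11.5, leidenalg 0.10.2), and those clusters with a Cd3 UMI in under 50% of cells were left out, which left 10757 cells. The clusters kept included a cluster led by Slc40a1 and the myeloid marker C1qa (84.4% of cells with a Cd3 UMI). Others were led by Igkc and Ighm (72.7%) and by genes including Cd4 (98.7%). In tumor samples of donors 1, 2 and 3 the C1qa cluster held 2, 14 and 6 MitoPositive and 0, 6 and 2 MitoNegative cells. The Igkc cluster held 4, 7 and 0 against 0, 0 and 5 cells, and the Cd4 cluster held 0 in each. Barcodes with similar counts of several hashtags were dropped by the hashtag ratio; no further doublet caller was run, so doublets of cells with the same hashtag stay. UMIs were summed per hashtagged sample, so cells were not replicates. The 12 d7 samples were fitted together with edgeR 4.0.16 (R 4.3.3), with filterByExpr, TMM scaling, library (donor) as a block and an adjusted p threshold of 0.05. The difference between organs came from the same fit. Spleen samples thus also entered the estimate of spread behind the tumor calls. Beyond the donor block, tumor and spleen samples of the same recipients were treated as independent. With tumor samples alone, 9 of 9714 genes passed. Standard errors were derived from the F statistic. The fit was also run on simulated counts. These held no donor or organ effect, unlike the data, so that run cannot vouch for the calls.

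The deposited hashtag list pairs the arms by donor. Deviations from group means correlated at 0.16, -0.07 and 0.10 for the tumor samples of donors 1, 2 and 3. Between different donors the values ran from -0.21 to 0.173, so samples of the same donor were not clearly more alike. Genes named are those that passed with the same sign of the log2 CPM difference (prior count 1) in 3 of 3 donors, the members of lists that passed, and up to 4 members per list with the smallest p. Shares of cells were compared with exact permutation tests (scipy 1.17.1), of which 0.1 is the smallest p. Confidence intervals are exact (Clopper-Pearson, 95%) and cover counting error only. Alternatives were DESeq2 1.42.0 (test and size factors), limma 3.58.1 (voom), no count filter, no block, tumor samples alone, leaving out each donor, HTODemux (Seurat 5.3.0) and other sets of cells or depths. Number of per-sample columns not used: 0.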

Additional observations from a re-analysis of the deposited data

Results flagged for a closer look

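Zfp981 also differed between the arms before transfer, in the d0 culture library, which none of the comparisons uses. It was looked at after the tumor values had been seen. The lowest MitoPositive d0 sample had 23.2 unscaled CPM, and the highest MitoNegative one had 1.08. The d0 samples of donors 1, 2 and 3 had 25.5, 23.2 and 25.2 unscaled CPM in MitoPositive samples, against 1.08, 0.858 and 0.324 in MitoNegative samples. This is 645 against 13 UMIs, a ratio of 33.2 with an exact 95% interval of 19.3 to 62.7 for counting error. The arms of the d0 samples follow the deposited hashtag list, which gives odd hashtags to MitoPositive cells, whereas the extraction protocol in the labels gives another map. The cause of the difference was not tested.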

How the results depend on the processing

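The number of genes called in the tumor (48) depended on the test and on single libraries. It was 174 with the DESeq2 test, 13 with limma-voom, 720 with no count filter, 9 with tumor samples alone, 10 with HTODemux, 129 with a hashtag 10 times the next, 29 with cells holding a Trbv14 UMI, 14 with cells thinned to 3000 UMIs and 2 with tumor sums thinned to the smallest. Without the donor (replicate) block it was 36, and 28 of the 48 calls passed. Leaving out 1 donor gave 0 to 52 calls (0 without donor 1, 52 without donor 2, 13 without donor 3) with the tested genes held fixed. With the count filter redone on the remaining samples, an alternative added after seeing the data, it gave 0, 22 and 18; holding the genes fixed was chosen after those counts had been seen. The difference between organs (0 calls) gave 160 with the DESeq2 test, 17 with limma-voom, 820 with no count filter, 2 without the replicate block, 1 with HTODemux, 65 with a hashtag 10 times the next, 23 with cells of a Cd3 and few other-cell UMIs, 130 with Trbv14 cells, 53 with thinned cells, 5 with thinned tumor sums and 0 to 370 without 1 donor (0 to 391 with the filter redone). All 48 calls kept their direction in every setting that tested them, except Csnk1e (0.10 in thinned cells). With HTODemux, 9 of the 45 calls that could be tested passed, among them Ifng, Rora and Klre1, while Il2, Lta, Ccl3, Ccl4, Gzmc, Zbtb32, Zfp981, Il10ra and Crabp2 were among those that did not. Over all settings, the 48 calls passed in 342 of 854 values, no longer passed in 511 and reversed in 1; list members that had not been called newly passed in 95 values. Without 1 donor, the arm difference in percent of cells ran from -16.1 to -8.71 for Ifng, -8.30 to -3.52 for Il2, -13.2 to -9.36 for Ccl3, -17.0 to -7.93 for Ccl4, 1.94 to 2.84 for Gzmc and 8.32 to 16.4 for Klre1. For shares of UMIs it ran from 0.216 to 0.361 percentage points for mitochondrially encoded genes, -0.0292 to -0.0117 for myeloid markers and -0.0846 to 0.00268 for melanoma markers, whose sign turned without donor 3. The cause was not tested for any of these. The MitoNegative tumor samples, of 30 to 116 cells, limit what could be detected.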

Other observations

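At d0, 2 other genes that were higher in MitoPositive tumor and spleen cells stood the other way round, by the deposited hashtag list. Klre1 had 3.96, 6.88 and 6.22 unscaled CPM in MitoPositive d0 samples, against 11.2, 10.3 and 13.8 in MitoNegative d0 samples. Airn had 255, 207 and 178 unscaled CPM in MitoPositive d0 samples, against 367, 297 and 342 in MitoNegative d0 samples. For both genes the d0 groups did not overlap. These genes were chosen after their values were seen, and the change between days was not tested.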
